A study of Mus musculus with 12 samples.

Results

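Liver expression was compared between 2 times after the same hormone course, and the genes described are those whose response to testosterone was not the same at both. The comparison used all 12 of the 12 arrays of the study, with 3 mice in each of 4 groups. For each gene the testosterone effect was the mean log2 signal of testosterone mice minus that of vehicle mice, and the difference was the effect after withdrawal minus the effect at the end of treatment. The same value is the change over time in testosterone mice minus the change over time in vehicle mice. A gene was called when limma gave an adjusted p under 0.05 over the 7217 genes tested.

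All mice were female and of the inbred strain C57BL/6, and each array held the liver RNA of 1 mouse. The treated mice received 0.9 mg of testosterone under the skin 2 times per week for 3 weeks, and the vehicle mice received 100 µl of the carrier, sesame oil, on the same schedule. Livers were taken at the end of the injections or after a stretch without them. Sample labels give that stretch as 12 weeks and the design text as 3 weeks, and neither gives the age of the mice or the hour of collection. The withdrawn groups were therefore also later in time than the end groups, in both treatments. The labelled purpose is to compare the hormone's short-term and long-term action on the female liver.

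Testosterone is a steroid hormone, and in the body it alters the rhythm of growth hormone release from the pituitary. In rodent liver the pattern of growth hormone pulses sets much of the difference between the sexes through the transcription factor STAT5. STAT5 induces Cish, which codes for a feedback inhibitor of cytokine receptors, and it represses Bcl6, whose product is a repressor that binds many of the same DNA sites. A hormone effect can fade when the hormone is gone, can appear late, or can persist, and a 4-group design separates these courses.

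In the difference, 158 genes were called, 2.19% of those tested. The effect was higher after withdrawal than at the end for 57 of them (0.79%) and lower for 101 (1.4%), while 1580 genes had an unadjusted p under 0.05. With arrays centred on their medians 154 genes were called and the split turned, with 42.2% of the calls negative in place of 63.9%. At the end 1258 genes were called for testosterone against vehicle (17.4%), 680 higher (9.42%) and 578 lower (8.01%). After withdrawal 433 were called (6%), 198 higher (2.74%) and 235 lower (3.26%). Of the 229 genes called at both times, 220 (3.05%) had 1 direction, and 211 of those 220 were not called in the difference.

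By course, 108 of the 158 genes had a transient effect, called at the end and not after withdrawal. For 71 of these testosterone mice were higher at the end and for 37 they were lower. Another 24 genes were delayed, called after withdrawal and not at the end, 8 of them higher and 16 lower in testosterone mice. The effect was reversed in 9 genes (0.125%), called at both times with opposite sign. In 6 genes it shrank and in 3 it grew without a change of sign, and 8 genes were called in the difference with no call at either time. Of the 158, 126 had effects of opposite sign at the 2 times, against 3189 of all 7217 genes (44.2%). Opposite signs widen the difference by which the 158 were picked, so a larger share among them is favoured by the selection.

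**Figure D1:**
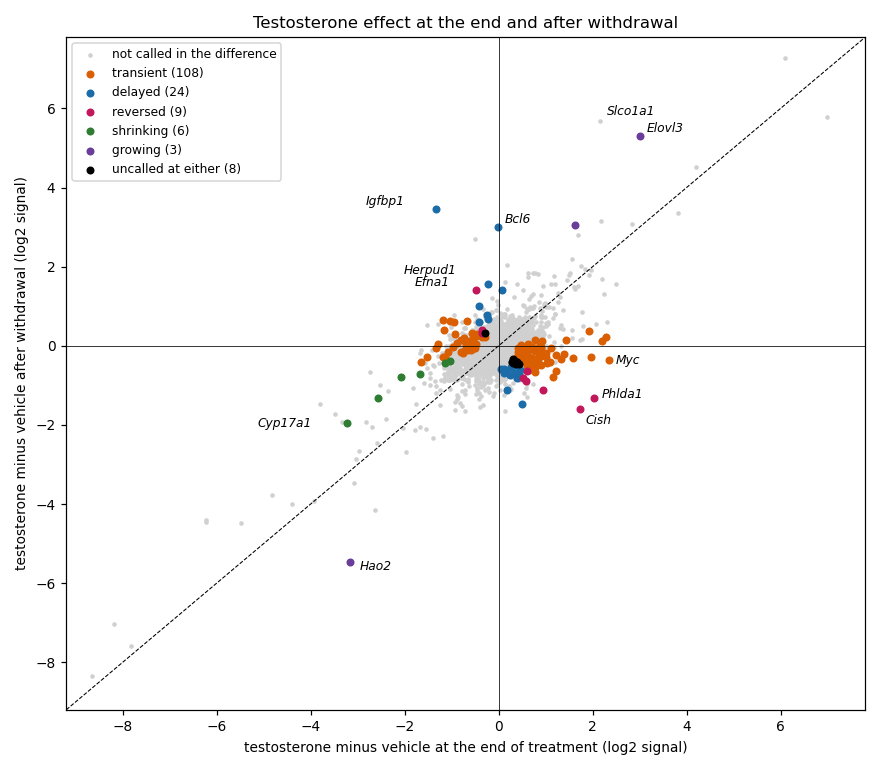
Testosterone effect at the end of treatment (x axis, log2 signal) against the effect after withdrawal (y axis, log2 signal) for 7217 genes. Each point is 1 gene, colours mark the course of the 158 genes called in the difference, and the dashed line marks equal effects. Transient genes lie along the x axis, Bcl6 and Igfbp1 lie high with little or negative effect at the end, and Phlda1 and Cish lie at the lower right, where the effect changed sign.

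Which group moved was read in 2 ways. By test, the time change was called in vehicle mice only for 80 of the 158 genes, in testosterone mice only for 52, in both for 26 and in neither for 0. Over all genes tested, the time change was called for 1288 genes in vehicle mice (17.8%), with 795 up (11%) and 493 down (6.83%). In testosterone mice it was called for 785 (10.9%), with 402 up (5.57%) and 383 down (5.31%). By level, a group stood apart when its mean log2 signal lay outside the other 3 by more than the range of those 3, and this held for 88 of the 158 genes. Testosterone mice at the end stood apart on the high side for 15 genes, a form that 7.57% of all genes had, and on the low side for 15 (6.26%). Vehicle mice at the end stood apart on the low side for 29 genes (9.91% of all) and on the high side for 9 (6.43%). Withdrawn vehicle mice were high for 10 genes (7.11%) and low for 3 (5.63%), and withdrawn testosterone mice were high for 3 (3.89%) and low for 4 (4.93%). In the other 70 genes no group stood apart, as in 48.3% of all genes.

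**Figure D2:**
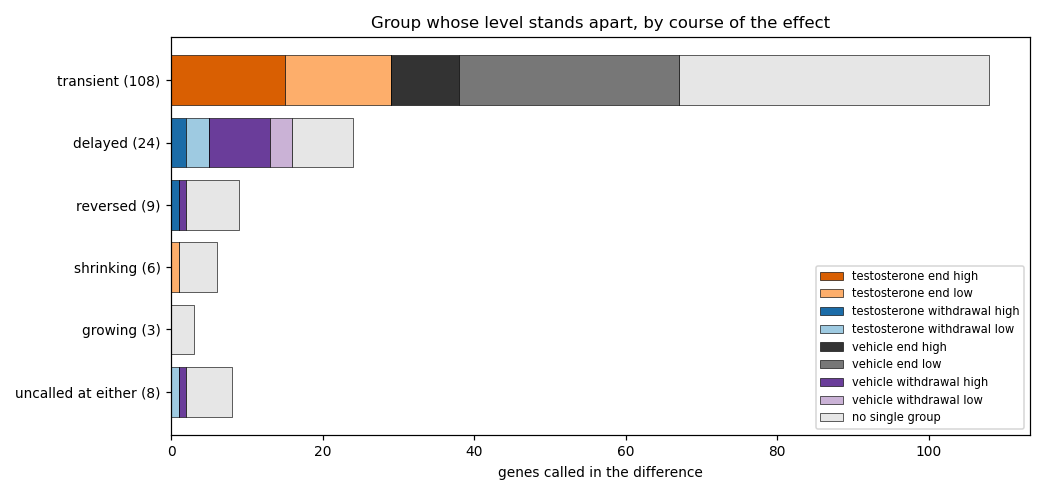
Number of genes called in the difference (x axis) by course of the effect (bars) and by the group whose mean level stood apart from the other 3 (colours). Among 108 transient genes, 29 had low levels in vehicle mice at the end and 15 had high levels in testosterone mice at the end.

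Median signals lay between 20.03 and 22.44 and mice of a group correlated at r = 0.979 to 0.989. The ratio of 3' to 5' signals of beta-actin control probe sets, which rises as RNA breaks down, was 1.52 ± 0.108 in vehicle and 2.11 ± 0.0769 in testosterone mice at the end (SD, n = 3 each; exact permutation p = 0.1, the smallest that 3 against 3 allows). After withdrawal it was 1.77 ± 0.154 and 1.62 ± 0.179 (exact permutation p = 0.2). The pyruvate carboxylase ratio was 6.06 ± 1.35 and 18.8 ± 2.64 at the end (exact permutation p = 0.1) and 14.1 ± 4.42 and 11.5 ± 3.32 after withdrawal (exact permutation p = 0.4). The Gapdh ratio was 0.763 ± 0.0316 and 0.93 ± 0.0254 at the end (exact permutation p = 0.1) and 0.797 ± 0.0493 and 0.844 ± 0.0499 later (exact permutation p = 0.3). At the end all 3 ratios were higher in every testosterone mouse than in any vehicle mouse, and after withdrawal the treatments overlapped. With the actin ratio as a covariate in the fit, 1 gene, Phlda1, was called (limma, adjusted p = 0.0148), and 157 of the 158 genes kept their sign. The part of RNA quality in the differences cannot be told apart from that of the hormone.

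The count of called genes also rested on single mice: it moved by more than 1.5 times when any 1 of the 12 was left out. Without vehicle mouse 1, 2 or 3 at the end it was 67, 83 or 265, and without testosterone mouse 1, 2 or 3 at the end 71, 53 or 80. After withdrawal it was 300, 47 or 26 without vehicle mouse 1, 2 or 3, and 534, 38 or 53 without testosterone mouse 1, 2 or 3. Phlda1, Cish, Bcl6, Igfbp1, Efna1, Foxa2, Gdap10, Wsb1, Herpud1, Ccdc25, Myc, Foxq1, Elovl3, C1galt1, Kpna4, Cyp17a1, Akr1d1 and Cyp2c68 were called in each of these 12 fits. With no filter on dim genes the calls of Igfbp1, Wsb1, Myc, Elovl3, C1galt1, Kpna4, Cyp17a1, Akr1d1 and Cyp2c68 were lost. With the mean of a gene's probe sets those of Kpna4 and Akr1d1 were lost, and without a variance trend that of Cyp2c68.

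All 17 hepatocyte markers on the array passed the filter, with summed signals of 62350 to 68330 in the groups other than withdrawn testosterone mice and 66550 to 78340 in those. Muscle markers, 11 on the array and all below the filter, summed to 481.5 in 1 withdrawn vehicle mouse and 1096 in 1 withdrawn testosterone mouse, against at most 60.69 in the others. Clock genes changed between the times in both directions: of 22 tested, the time change was called upward for 4 and downward for 12 in vehicle mice, where 11% and 6.83% of all genes were. In testosterone mice it was called for 5 and 11, against 5.57% and 5.31% of all genes. Dbp, a clock output factor named after its values were seen, fell by 5.79 in vehicle and by 5.38 in testosterone mice (log2). No clock gene was called in the difference by limma, against 2.19% of all genes. An unadjusted p under 0.05 was found for 6 of the 22, against 1580 of all 7217 genes. The hour of collection is not in the labels, and its part in the time changes was not tested.

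Promoter windows were searched for sites of STAT5 and other factors. The windows are the 250 bases before a RefSeq gene start (GRCm38.p6), found for 127 of the 158 called genes and 5951 of the 7217 tested. A site for STAT5 and BCL6, TTCNNNGAA, which reads the same on both strands, was in the windows of 10 of the 127 genes (7.87%) and of 413 of the 5951 (6.94%). Cish and Bcl6 are shown because they answer to STAT5 and are a reversed and a delayed gene, with such sites in capitals. The Cish window holds none, and the windows before the 2 Bcl6 starts hold 1 and 3.
Cish, chr9:107296409-107296658, + strand: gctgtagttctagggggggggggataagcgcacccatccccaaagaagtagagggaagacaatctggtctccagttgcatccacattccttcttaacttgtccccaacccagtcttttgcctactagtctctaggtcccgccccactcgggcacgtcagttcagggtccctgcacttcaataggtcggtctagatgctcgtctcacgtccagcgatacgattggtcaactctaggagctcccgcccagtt
Bcl6, upstream start, chr16:23988853-23989102, - strand: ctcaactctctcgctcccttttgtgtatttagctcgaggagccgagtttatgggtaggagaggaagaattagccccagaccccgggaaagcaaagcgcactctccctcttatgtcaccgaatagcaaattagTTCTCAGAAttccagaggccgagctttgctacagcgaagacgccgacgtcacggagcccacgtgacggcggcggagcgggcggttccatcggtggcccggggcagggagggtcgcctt
Bcl6, downstream start, chr16:23981284-23981533, - strand: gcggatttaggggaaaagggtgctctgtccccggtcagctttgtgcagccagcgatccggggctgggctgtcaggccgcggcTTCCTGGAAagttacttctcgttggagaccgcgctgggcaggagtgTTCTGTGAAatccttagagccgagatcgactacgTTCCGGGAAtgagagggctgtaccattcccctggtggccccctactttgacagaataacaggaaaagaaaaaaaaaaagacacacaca
In the second Bcl6 window the sites begin 168, 122 and 88 bases before the start.
Further motifs were searched on both strands. The E-box CACGTG was in 11% of called genes against 10.4% of those tested. The cyclic AMP and ATF element TGACGTCA was in 6 of the 127 called genes (4.72%) against 2.92%. The HNF6 site ATTGATTT was in 3 called genes (2.36%) against 0.672%. The D-box TTATGTAA was in 1 called gene (0.787%) against 0.588%, and the ER stress element in 1 (0.787%) against 0.235%. The metal response element (TGCGCNC or TGCACNC) was in 33.1% against 34.1%.

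Among reversed genes the widest difference was that of Phlda1. It codes for a pleckstrin homology domain protein that is induced by growth factors and stress. Its signals at the end were 243, 189.5 and 223 in vehicle mice and 977, 829.5 and 868 in testosterone mice. After withdrawal they were 598, 381 and 605 in vehicle mice and 229, 215 and 179 in testosterone mice. The treatments did not overlap at the end, as in 35.7% of all genes, nor after withdrawal, as in 25.9%, and the order turned: testosterone mice were the higher ones at the end and the lower ones later. The effect was 2.03 ± 0.16 at the end and -1.32 ± 0.16 after withdrawal (log2 ± SE), a difference of -3.36 ± 0.23 (limma, adjusted p = 2.16e-06). Both treatments moved over time, vehicle mice upward by 1.25 and testosterone mice downward by 2.11.

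Cish, the STAT5-induced feedback inhibitor, had the same shape. Vehicle mice had signals of 44.5, 46.9 and 29.6 at the end and 115, 71.1 and 116 after withdrawal. Testosterone mice had 118, 128 and 150.3 at the end and 39.1, 29.4 and 30.5 after withdrawal. The treated livers at the end and the vehicle livers later were high, and the other groups were low. The effect went from 1.73 ± 0.21 to -1.59 ± 0.21, a difference of -3.32 ± 0.30 (adjusted p = 4.81e-05).

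Wsb1, which codes for a substrate receptor of a ubiquitin ligase, went from 0.95 ± 0.24 at the end to -1.11 ± 0.24 after withdrawal, with time changes called in both treatments. Efna1, a membrane ligand of Eph receptors, ran the other way. Its signals were 135, 118 and 121 in vehicle and 92, 81.8 and 95 in testosterone mice at the end, and 74.7, 73.3 and 83.1 in vehicle and 204, 170.5 and 248 in testosterone mice after withdrawal. Here the withdrawn testosterone mice stood above all other groups, and the difference was 1.89 ± 0.19 (adjusted p = 9.52e-05).

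Foxa2, a pioneer transcription factor of hepatocytes, rested on the vehicle side. Vehicle mice had 84.8, 63 and 72.6 at the end and 184, 177 and 205 after withdrawal, whereas testosterone mice had 99.9, 129 and 101 and 99, 104 and 103. The time change was 1.37 in vehicle mice (adjusted p = 1.61e-05) and -0.10 in testosterone mice, where it was not called (adjusted p = 0.69). The difference was -1.47 ± 0.19 (adjusted p = 0.00107).

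Gdap10 went from 0.52 ± 0.13 to -0.80 ± 0.13, on top of a fall over time in both treatments. Its signals dropped from 155, 149.9 and 190.4 to 72.9, 91.9 and 81.1 in vehicle mice and from 242, 252 and 212 to 47.4, 47.7 and 45.3 in testosterone mice. The other reversed genes had smaller differences. Stim1, the calcium sensor of the endoplasmic reticulum, had -1.26 ± 0.24, Cope, a subunit of the coat of transport vesicles, had 0.74 ± 0.14, and Gjb1, the main gap junction protein of hepatocytes, had 0.69 ± 0.12. Without 1 mouse, the call was lost in 4 of 12 fits for Stim1, in 4 for Cope and in 1 for Gjb1.

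**Figure D3:**
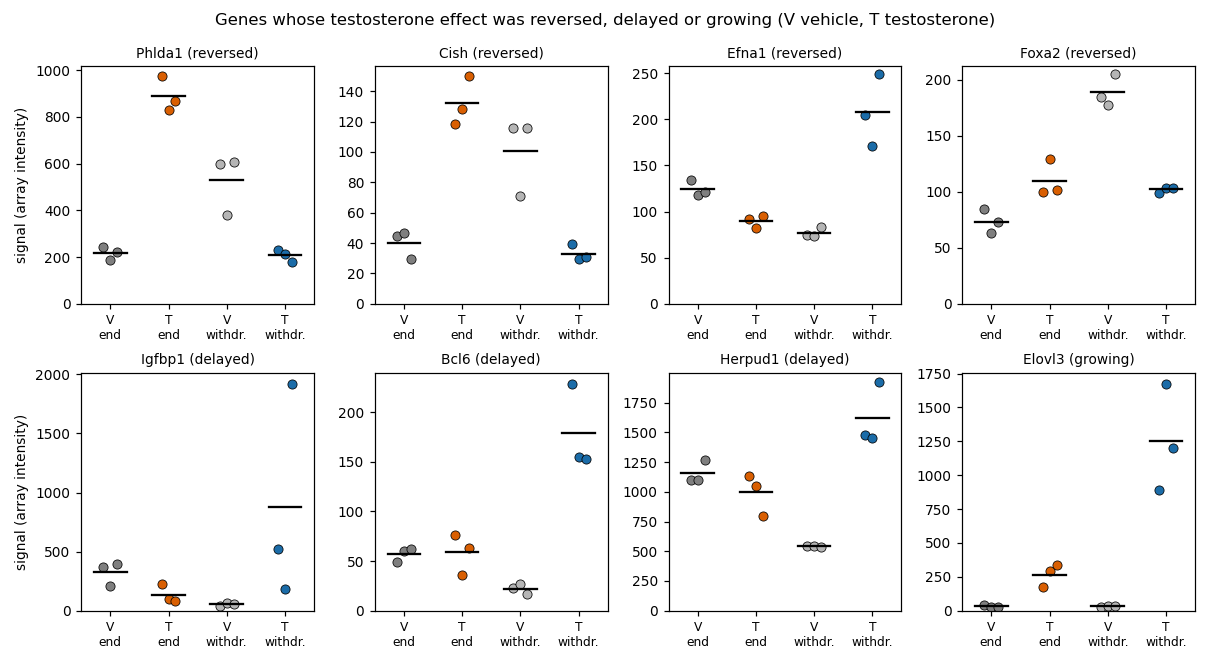
Signal (array intensity, y axis) of 8 genes in each mouse, with points for mice and bars for group means, in vehicle (V) and testosterone (T) mice at the end and after withdrawal. Phlda1 and Cish are high in the testosterone mice at the end and in the withdrawn vehicle mice, and Bcl6 and Elovl3 are highest in the withdrawn testosterone mice.

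Among delayed genes, Igfbp1 had the largest difference of all 158. It codes for an IGF-binding protein of the liver that rises in fasting and is lowered by insulin. Signals at the end were 368, 211 and 393 in vehicle and 224, 98.4 and 85.5 in testosterone mice, and after withdrawal 39, 68.2 and 53 in vehicle and 526, 186 and 1915 in testosterone mice. Treatments overlapped at the end and did not after withdrawal, and the withdrawn testosterone mice spread widely. The effect was -1.34 ± 0.59 at the end and 3.46 ± 0.59 later, with a difference of 4.80 ± 0.84 (adjusted p = 0.0116). The call was lost with robust variance estimates (adjusted p = 0.0628) and with no filter on dim genes (adjusted p = 0.11). Vehicle mice fell by 2.59 over time and testosterone mice rose by 2.21, both called. Of the 26 genes of gluconeogenesis, glycogen and fasting tested, Igfbp1 alone was called in the difference, against 2.19% of all genes. The list's median was 0.000733.

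Bcl6 codes for the repressor that shares sites with STAT5. Vehicle mice had signals of 48.9, 59.7 and 62.2 at the end and 22.6, 27.1 and 17 after withdrawal, and testosterone mice 76.5, 36.3 and 63.4 at the end and 229, 155 and 153 after withdrawal. The treatments overlapped at the end, where the effect was -0.01 ± 0.25. Withdrawn testosterone mice stood above every other mouse, with an effect of 3.01 ± 0.25 and a difference of 3.02 ± 0.35 (adjusted p = 4.77e-04). A second probe set gave a difference of 3.15.

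Herpud1, which takes part in the disposal of misfolded proteins at the endoplasmic reticulum, had signals of 1099, 1095 and 1269 in vehicle and 1136, 1051 and 797 in testosterone mice at the end. After withdrawal these were 545, 544 and 536 and 1474, 1450.3 and 1927. The withdrawn vehicle mice stood apart on the low side, within a narrow range, and the withdrawn testosterone mice were the highest. The difference was 1.79 ± 0.18 (adjusted p = 1.05e-04). Of 42 genes of the unfolded protein response and folding in the endoplasmic reticulum, Herpud1 was the only one called upward, against 0.79% of all genes. Ssr1, a translocon subunit, was the only one called downward, against 1.4% of all genes. The Ssr1 difference was -0.64 ± 0.13, with 0.14 and -0.17 on 2 other probe sets that were not called. The list's median was -0.000776.

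For 14 of the 24 delayed genes the time change was called in vehicle mice only, against 80 of all 158 genes called in the difference. Slc22a7, an organic anion transporter, fell in vehicle mice from 279, 187 and 167 to 52.3, 86.7 and 112, while testosterone mice had 167, 133 and 163 at the end and 139.5, 168 and 176 later. Cmah, the enzyme that makes N-glycolylneuraminic acid, had the same form, with a difference of 1.33 ± 0.28. Raly, an RNA-binding protein, went the other way: vehicle mice rose from 35.5, 40.5 and 39.2 to 75.4, 70.1 and 87.2 and testosterone mice had 40.8, 55.1 and 36.3 and 37.9, 33.9 and 34.8. Fam117b, Ybx3 and Rbbp6 also had negative differences, of -1.23, -1.15 and -1.07. Second probe sets of Ybx3 (-0.48) and Rbbp6 (-0.11) were not called.

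In a few delayed genes the withdrawn testosterone mice stood apart. Ccdc25 had signals of 19.1, 22.9 and 18.1 there, below 66, 41.7 and 60.8 in withdrawn vehicle mice and below both groups at the end, and its difference was -1.97 ± 0.30. Cited2, a transcriptional co-regulator, was high in the same mice, with 165, 151 and 145 against 82.3, 100.5 and 85.4. Cadm1, a cell adhesion protein, was low, with 94.4, 81.3 and 88.8 against 142, 152 and 148. A second Cited2 probe set gave 0.25 and was not called, and of 3 others of Cadm1 those at -1.65 and -1.13 were called and that at -0.24 was not. Without 1 mouse, calls were lost in 1 of 12 fits for Raly, 6 for Cited2, 6 for Cadm1, 7 for Cmah, 8 for Slc22a7, 8 for Ybx3, 9 for Fam117b and 9 for Rbbp6.

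Transient genes with high levels in testosterone mice at the end were led by Myc, a transcription factor of growth. Its signals there were 93.1, 60.6 and 72.1, against 13.6, 9.51 and 24.2 in vehicle mice at the same time. After withdrawal they were 12.2, 15.8 and 14 in vehicle and 10.3, 9.29 and 13.4 in testosterone mice, which overlapped. The effect went from 2.34 ± 0.30 to -0.36 ± 0.30, a difference of -2.70 ± 0.43 (adjusted p = 0.0088).

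Foxq1, a forkhead transcription factor, was at 177, 161 and 170.2 in testosterone mice at the end and between 25 and 48.4 in the other 9 mice. Its effect of 1.96 ± 0.15 at the end was -0.28 ± 0.15 after withdrawal, and the difference was -2.24 ± 0.21 (adjusted p = 7.09e-05). The vehicle mice did not change beyond the test's threshold, with -0.39 (adjusted p = 0.0915).

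Gadd45g, a growth arrest gene induced by stress and cytokines, had 100.2, 116 and 90.6 in testosterone mice at the end and 28.4, 25.8 and 12.4 in vehicle mice. After withdrawal vehicle mice had 36.4, 18.4 and 31.2 and testosterone mice 22, 27.8 and 53.8. Clec2d, a ligand of a natural killer cell receptor, was higher in testosterone mice at the end by 1.22 ± 0.31, and its effect after withdrawal was -0.64 ± 0.31. Ampd2, an AMP deaminase, had a difference of -2.09 ± 0.49 on its brighter probe set and 0.10 on a second one. The brighter probe set carries the manufacturer's mark for possible cross-hybridisation. The calls of Gadd45g, Clec2d and Ampd2 were each lost in 9 of the 12 fits without 1 mouse.

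Of the 28 early-response and androgen-responsive transcription factors and regulators tested, 5 were called in the difference, all downward, where 1.4% of all genes were. They were Myc, Phlda1, Foxq1, Gadd45g and Cebpb. Members of this list, with Myc, Phlda1 and Foxq1 among them, were chosen with earlier results of these data known. The number called is therefore a description and not a test of the list. The list's median difference was -0.0499, near the -0.0659 of all 7217 genes, and 13 of the 28 had a positive difference. Cebpb, a liver transcription factor, was named after its value was seen and had -0.79 ± 0.17. Socs3, another feedback inhibitor of cytokine signalling, and Onecut1, which codes for HNF6, had transient forms that missed the threshold. Their differences were -1.62 ± 0.43 (95% interval -2.54 to -0.70, adjusted p = 0.06) and -1.60 ± 0.43 (-2.52 to -0.69, adjusted p = 0.06). Over every probe set these were called (adjusted p = 0.0458 each), while other probe sets of Socs3 (-1.17 and -0.81) and Onecut1 (-0.38) were not.

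Lpin1, a phosphatidate phosphatase and regulator of lipid genes, fell over time in both treatments and more so under testosterone. Vehicle mice had 350.1, 193 and 271 at the end and 96.3, 124 and 93.5 later, and testosterone mice 932, 394 and 542 and 48.7, 57.8 and 77. The difference was -1.93 ± 0.38 (adjusted p = 0.0205). Its call was lost in 3 of the 12 fits without 1 mouse.

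Transient genes that were low in testosterone mice at the end included enzymes of bile acid synthesis. Cyp7a1, the rate-limiting enzyme of that pathway, had 1052, 518 and 676 in testosterone mice at the end and 1983, 2253 and 1985 in vehicle mice. After withdrawal vehicle mice had 1513, 1879 and 1468 and testosterone mice 1054, 1464 and 1535, and the treatments overlapped. The difference was 1.26 ± 0.28 (adjusted p = 0.0362), and a second probe set gave 2.25. Akr1d1, the reductase that sets the bile acid ring junction and also reduces steroid hormones, had an effect of -1.13 ± 0.10 at the end and -0.27 ± 0.10 later, though a second probe set gave a difference of opposite sign, -0.40. These were the 2 called genes of 28 tested for bile acid synthesis and transport, against 2.19% of all genes. The list's median difference was 0.0817.

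Igf1, the circulating growth factor that growth hormone induces in liver, was slightly lower in testosterone mice at the end. Its signals were 1781, 1698 and 1783 there and 2307, 2627 and 2376 in vehicle mice, and after withdrawal 2240.2, 2339.6 and 2262 and 2413, 1991 and 2194. The difference was 0.53 ± 0.11 (adjusted p = 0.0268) on the brightest probe set, and -0.13 and 0.48 on 2 others, which were not called. Gstt1, a glutathione transferase, had 0.46 ± 0.10. Without 1 mouse the call was lost in 7 of 12 fits for Igf1, 8 for Cyp7a1 and 9 for Gstt1.

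**Figure D4:**
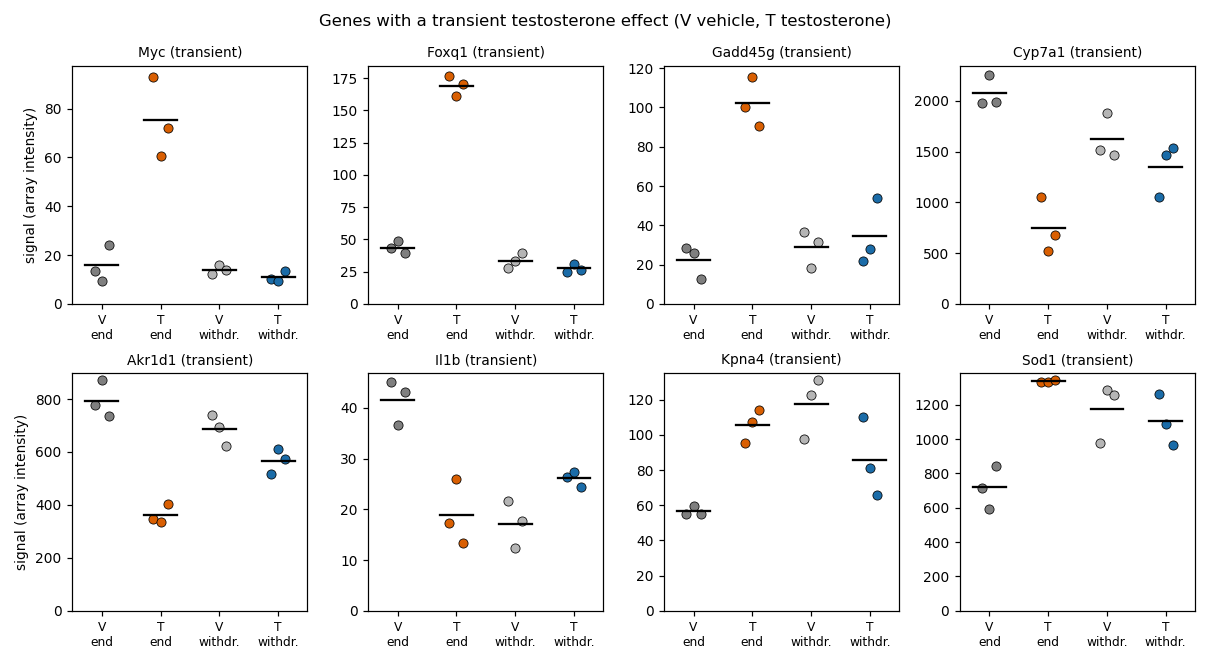
Signal (array intensity, y axis) in each mouse for 8 transient genes, with points for mice and bars for group means in vehicle (V) and testosterone (T) mice at both times. Myc, Foxq1 and Gadd45g are high and Cyp7a1 and Akr1d1 low in testosterone mice at the end, whereas for Il1b, Kpna4 and Sod1 it is the vehicle mice at the end that differ from the other groups.

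A larger set of transient genes had their outlying level in vehicle mice at the end. Kpna4, an importin that carries proteins into the nucleus, had 55.1, 59.5 and 55 in vehicle mice at the end and 95.6, 107 and 114 in testosterone mice. Later, vehicle mice had 97.9, 123 and 131 and testosterone mice 109.9, 81 and 66. Its time change was 1.04 in vehicle mice (adjusted p = 9.81e-04) and -0.33 in testosterone mice (adjusted p = 0.225).

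Sod1, the cytosolic superoxide dismutase, had 716, 593 and 846 in vehicle mice at the end, below the other 9 mice, which lay between 965 and 1346. Cpox, an enzyme of heme synthesis, and Cpeb2, an RNA-binding regulator of translation, had negative differences of the same form, -1.51 ± 0.32 and -1.87 ± 0.37. Tmem250-ps, annotated as a pseudogene, had -1.47 ± 0.35. Second probe sets of Cpox (-0.68) and Sod1 (-0.54) were not called. Without 1 mouse the call was lost in 3 of 12 fits for Sod1, 5 for Cpeb2, 9 for Cpox and 9 for Tmem250-ps.

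Vehicle mice at the end were high for Il1b, which codes for an inflammatory cytokine of macrophages. Its signals were 45.2, 36.7 and 43.1 there and 17.3, 25.9 and 13.3 in testosterone mice, and 21.6, 12.3 and 17.7 and 26.5, 27.4 and 24.4 after withdrawal. The difference was 1.83 ± 0.36 (adjusted p = 0.0205). Of the 27 markers of Kupffer cells and macrophages tested, none was called in the difference by limma, against 2.19% of all genes. An unadjusted p under 0.05 was found for 11 of them, against 1580 of all 7217 genes. Their median difference was 0.558 against -0.0659 for all genes. Over time 19 of these 27 were called lower and 0 higher in vehicle mice, where 6.83% and 11% of all genes were. In testosterone mice 3 were called lower, against 5.31% of all genes. Summed marker signals were 6165 to 9221 in vehicle mice at the end and 3683 to 5969 in the other groups. Fewer macrophages and less marker RNA per macrophage cannot be told apart in whole liver, and the part of these markers in the Il1b difference was not tested.

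Vehicle mice at the end were also high for enzymes of cholesterol synthesis. Fdps, a farnesyl diphosphate synthase, had 2520.4, 2325 and 2189 in vehicle mice at the end and 1254, 1166 and 1668 in testosterone mice, then 1422, 1231 and 1098 and 1022, 1596 and 1616. Hsd17b7, a later enzyme of the pathway, was at 284, 209 and 219 in vehicle mice at the end, above all other groups, and its difference was 0.94 ± 0.22. Of 21 genes tested, Fdps and Hsd17b7 were called upward and Lpin1 downward, where 0.79% and 1.4% of all genes were. The median difference was 0.352 against -0.0659 for all genes, and 18 of the 21 were positive. Over time 12 of the 21 were called lower in vehicle mice and 6 in testosterone mice, against 6.83% and 5.31% of all genes. Pcna, a clamp of the replication machinery, was also highest in vehicle mice at the end, with 0.64 ± 0.15. It was the only call among 20 genes of replication and division, against 2.19% of all genes. Without 1 mouse the call was lost in 4 of 12 fits for Il1b, 8 for Fdps, 7 for Hsd17b7 and 9 for Pcna.

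Other transient genes moved in both treatments or had no single outlying group. C1galt1, which builds the core of O-linked glycans, had an effect of -1.04 ± 0.21 at the end and 0.63 ± 0.21 later, and Met, the receptor of hepatocyte growth factor, -1.15 ± 0.22 and 0.39 ± 0.22. Ctse, an aspartic protease, had a difference of 1.56 ± 0.31, and Mccc2, an enzyme of leucine breakdown, 1.35 ± 0.27. Apcs, a pentraxin of the acute phase, had 1.24 ± 0.27. It was the only gene called of 36 of the acute phase and complement, against 2.19% of all genes. The median of that list was 0.291. Acot12, a cytosolic thioesterase, had 0.74 ± 0.15 (0.17 on a second probe set, not called), and Bmp2, a growth factor of endothelial cells that governs hepcidin, -1.24 ± 0.29. On a second probe set the C1galt1 difference was 0.69, against 1.68 on the main one, and was not called. Without 1 mouse the call was lost in 5 of 12 fits for Ctse, 5 for Mccc2, 7 for Apcs, 8 for Met, 8 for Acot12 and 9 for Bmp2.

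In Elovl3, Susd4 and Hao2, all on the lists of sex-biased genes, the effect grew without a change of sign. Elovl3, a fatty acid elongase that is higher in male liver, had 42.3, 27.1 and 28.9 in vehicle mice at the end and 24.4, 32.6 and 36.1 after withdrawal. Testosterone mice had 176, 289.9 and 335 at the end and 889, 1670.2 and 1199 after withdrawal, so that its induction grew without hormone injections. The effect was 3.00 ± 0.26 and then 5.31 ± 0.26, a difference of 2.30 ± 0.36 (adjusted p = 0.00875). Susd4, a complement regulator of male-biased expression, went from an effect of 1.62 ± 0.25 to 3.04 ± 0.25. Over time its signal fell by 0.75 in vehicle mice (limma, adjusted p = 0.046). The rise of 0.67 in testosterone mice was not called (limma, adjusted p = 0.098).

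Hao2, a female-biased peroxisomal oxidase, had 29, 48.3 and 59.9 in vehicle mice at the end and 339.9, 431 and 354 after withdrawal. Testosterone mice had 2.38, 3.91 and 5.07 and 7.43, 2.9 and 16.7, near or under the floor of 4.84, so the sizes of these effects are bounded by the floor. The growth of its effect, -2.31 ± 0.50, came with a rise in vehicle mice of 3.09. The calls of Hao2 and Susd4 were lost in 8 and 9 of the 12 fits without 1 mouse.

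In the shrinking genes, testosterone mice were lower at both times and less so after withdrawal. Cyp17a1, a steroid hydroxylase and lyase, had 1007, 944 and 958 in vehicle and 97.1, 90.2 and 126 in testosterone mice at the end, then 474, 714 and 537 and 162, 125 and 158. Its effect went from -3.23 ± 0.16 to -1.94 ± 0.16. Bche, a serum cholinesterase, went from -2.07 ± 0.16 to -0.78 ± 0.16, and Abcd2, a peroxisomal fatty acid transporter, from -2.58 ± 0.20 to -1.32 ± 0.20. Acnat2, a peroxisomal acyltransferase, had 75.3, 61.9 and 72.4 in testosterone mice at the end against 223, 251 and 193 in vehicle mice, and 155, 152 and 217 against 248, 337 and 270.0 later. Cyp2c68, a P450, had a difference of 0.69 ± 0.12, and Ang, a ribonuclease, named after its value was seen, 0.64 ± 0.15. Without 1 mouse the call was lost in 1 of 12 fits for Bche, 7 for Abcd2 and 9 for Acnat2.

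The 8 genes with no call at either time had small opposite effects. Aggf1, Alcam, Dvl1, Rps6 and Ube2r2 had negative differences between -0.89 and -0.74, and Mrpl50 a positive one of 0.61. Second probe sets, not called, gave -0.34 for Mrpl50, of opposite sign, -0.18 for Dvl1 and -0.30 for Alcam. Gcnt2 and Tob1, the other two, were at -0.71 and -0.64, and were named after their values were seen. The call of each of the 6 genes named first was lost in 8 or 9 of the 12 fits without 1 mouse.

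Most sex-dependent genes were not called in the difference, which also holds for genes at large, of which 2.19% were called. Of 27 male-biased genes tested, 20 were called higher in testosterone mice at the end (9.42% of all genes) and 20 after withdrawal (2.74%). In the difference 3 were called (Elovl3, Susd4 and Bcl6). Of 49 female-biased genes, 34 were called lower at the end (8.01% of all genes) and 33 after withdrawal (3.26%). In the difference 4 were called: Igfbp1, Cyp17a1 and Abcd2 upward and Hao2 downward. Median differences were 0.318 and 0.134.

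Several wide differences missed the threshold. Slco1a1, an organic anion transporter of male-biased expression, had 106, 1.92 and 17.5 in withdrawn vehicle mice and 917, 1281 and 1052 in withdrawn testosterone mice, with 194, 319 and 271 and 1155, 1005 and 1277 at the end. Its difference was 3.54 ± 0.98 (95% interval 1.45 to 5.62, adjusted p = 0.0659). Over every probe set a second one was called, with 3.49 (adjusted p = 0.0422), and the first was not (adjusted p = 0.0507). Cyp2b9, a female-biased P450, had 1.82 ± 0.79 (0.13 to 3.5, adjusted p = 0.194). Lcn2 and Saa1, acute phase genes, were each far above the rest in vehicle mouse 2 at the end, at 2008 and 5042, and their intervals were -0.39 to 5.06 and -0.81 to 3.77. Metallothionein 1, Mt1, had 1.05 ± 0.53 (-0.08 to 2.18), and Mt2 0.40 ± 0.67 (-1.03 to 1.83).

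Other strong effects, called at both times in 1 direction, were not called in the difference. Cyp2d9, a male-biased P450, had effects of 4.2 and 4.52, with an interval of the difference from -0.70 to 1.33. Sult2a2, a female-biased sulfotransferase, had -8.65 and -8.34, with some testosterone mice at the floor (-1.08 to 1.69). Cyp2b13, Sult3a1, Cux2, Hsd3b5 and Cyp4a12a were also not called, with mice at the floor in the low groups, so that the sizes of their effects and differences depend on the floor. An uncalled difference does not show equal effects.

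Of the 25 genes of growth hormone and STAT5 signalling, 5 were called, where 2.19% of all genes were. Cish and Foxa2 were called downward and Igfbp1, Bcl6 and Igf1 upward. The list's median was -0.132. The receptor Ghr had a difference of -0.05 (-0.34 to 0.23), the transcription factor Stat5b -0.16 (-0.67 to 0.35), Socs2 -0.17 (-0.93 to 0.59), Hnf4a -0.13 (-0.40 to 0.14) and Igfbp2 0.15 (-0.45 to 0.76). On these probe sets, the brightest of each gene, no call was made. Tested over every probe set, dimmer ones gave positive differences for Ghr (1.38, adjusted p = 0.0289), Stat5b (1.18, adjusted p = 0.0343) and Hnf4a (1.47, adjusted p = 0.0163, and 0.59, adjusted p = 0.0478). Further ones were not called, with 0.14 for Ghr, -0.71 for Hnf4a and 0.19 for Socs2, so the sign for these genes depends on the probe set. Esr1, the estrogen receptor, lay below the filter.

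Other pathways had few or no calls, and over all genes 2.19% were called, so short lists would hold few in any case. None was called by limma among 70 genes of oxidative phosphorylation, 45 of the interferon response and antigen presentation, 33 proteasome subunits, 32 xenobiotic P450s and their receptors and 26 heat shock proteins and chaperones. Unadjusted p-values under 0.05 numbered 11, 8, 5, 9 and 4 in these lists, against 1580 of all 7217 genes. A single gene was called in each of phase II conjugation (Gstt1, of 45), amino acid breakdown (Mccc2, of 45), fatty acid oxidation (Acot12, of 40) and ribosomal proteins (Rps6, of 41). On a mixed list of metallothioneins and genes of zinc and iron handling, the superoxide dismutase gene Sod1 was the only call of 22. Hsd17b7 and Akr1d1 were the calls among 18 genes of steroid receptors and steroid metabolism, and Elovl3 and Lpin1 among 31 of fatty acid and triglyceride synthesis.

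The study's title also speaks of a turn toward exocrine pancreas, where digestive enzymes are made. Of 26 genes of that tissue on the array, 3 passed the filter (Amy1, Cela1 and Cela2a) and none was called in the difference. Cela1, an elastase, had 1.11 ± 0.31 (adjusted p = 0.0688). The rest were dim in most mice, but for most of them, though not all, withdrawn testosterone mice 1 and 2 had higher signals than mouse 3. The genes given next were named after their values were seen. Zg16, a zymogen granule protein, was at 64.6 and 211 in these mice and 11.7 in mouse 3. Ctrb1, a chymotrypsinogen, was at 70.4 and 172 against 6.04, and Cpa1, a carboxypeptidase, at 40.3 and 138 against 0.472.

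In both mice 12 of the 26 genes (46.2%) lay at least 2-fold above the other 10 mice and the floor, a rule set after the values were seen. Over all 12393 genes on the array the same 12 and no others did so (0.0968%). Mouse 2 was higher than mouse 1 by 1.96 to 3.44 times in all 12. With no filter on dim genes limma called 0 of the 26 in the difference, and 5 had an unadjusted p under 0.05, against 37 and 1824 of all 12393 genes. Endocrine pancreas genes, 9 on the array, had summed signals of 14.96 to 38.89 in all mice. With withdrawn testosterone mice 1 and 2 left out, 225 genes were called and 99 of the 158 kept their call; the 1 remaining mouse of that group was taken to vary like the other groups.

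**Figure D5:**
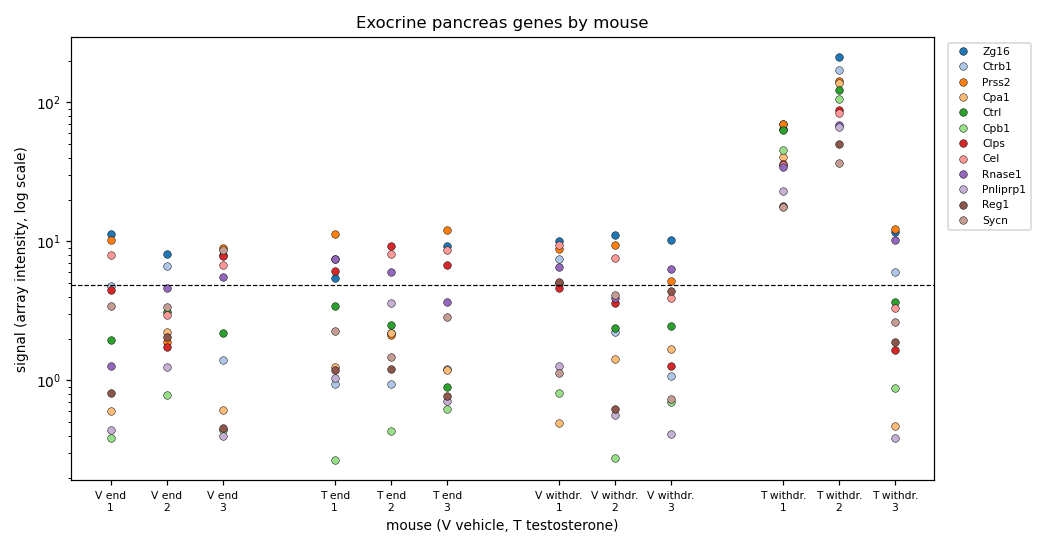
Signals (array intensity, log axis) of the 12 exocrine pancreas genes that lay at least 2-fold above all other mice in withdrawn testosterone mice 1 and 2. Columns are mice and colours are genes, and the dashed line marks the floor of 4.84. Withdrawn testosterone mouse 3 lies near the other 9 mice, at 12.3 or less, and just above all of them for Rnase1, Prss2, Zg16 and Cpb1.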

How the data were processed

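Liver RNA of 12 mice was hybridised to 12 one-colour Affymetrix arrays, with 3 mice in each of 4 groups taken from the sample titles. The deposited values are linear array intensities, made with GCOS and MAS5 per the submitters' processing notes, which give no versions. All arrays have the same 2% trimmed mean of 100.05, so they had been scaled to 1 target before deposit. Array depth has no count, and 3 mice per group limit the precision. The limma p-values weigh a difference against the spread between mice, moderated over all genes tested.

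Of 22690 probe sets, 64 controls were left out. Signals under 4.84, the 25th percentile, were set to that floor before log2 was taken. Of the other 22626 probe sets, 20380 had 1 gene symbol in the platform annotation, 691 several and 1555 none. Each of 12393 genes was read from its brightest probe set, and 7217 exceeded the median signal of the array on 3 or more arrays. The differences were fitted with limma 3.58.1 in R 4.3.3 (lmFit and eBayes with a variance trend, 4 group means, no covariate, 8 residual degrees of freedom), with Benjamini-Hochberg adjustment over all genes tested. Intervals are 95%. The fit was tested on simulated data. Named genes are, among those called, the 12 largest differences in each direction, the 5 largest in each course and direction and for each group that stands apart, every reversed gene and up to 4 members of each of 39 gene lists (23 pathways and 16 marker lists). A fixed list of hormone and sex-dependent genes and 5 strong effects called at both times in 1 direction are named whatever their result, and exceptions are marked. Members and lists were chosen with earlier results of these data known. Alternatives covered the floor, scaling, filter, probe set choice, variance model, threshold, replicate number, actin ratio and each mouse left out. Of 972 probe sets named for no single gene, or several, that passed the filter, 45 (4.63%) were called and are not described. That fit held every probe set with or without a symbol, and it called 533 of 11136 with 1 symbol (4.79%). Promoters are from RefSeq (GRCm38.p6), and a searched motif is not reported here.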

Additional observations from a re-analysis of the deposited data

Results flagged for a closer look

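The testosterone effect at the end and after withdrawal differed by the test of the difference itself (limma, adjusted p under 0.05 over all genes tested) for 158 genes. Values below are log2 differences, the effect after withdrawal minus the effect at the end, for the named genes among them. With a transient effect, the positive differences were Il1b 1.83, C1galt1 1.68, Ctse 1.56, Met 1.54, Mccc2 1.35, Cyp7a1 1.26, Apcs 1.24, Fdps 0.95, Hsd17b7 0.94, Akr1d1 0.86, Acot12 0.74, Pcna 0.64, Igf1 0.53 and Gstt1 0.46. With a transient effect, the negative differences were Myc -2.70, Foxq1 -2.24, Ampd2 -2.09, Gadd45g -2.07, Lpin1 -1.93, Cpeb2 -1.87, Clec2d -1.86, Cpox -1.51, Tmem250-ps -1.47, Kpna4 -1.38, Bmp2 -1.24, Sod1 -1.0 and Ssr1 -0.64. With a delayed effect, the positive differences were Igfbp1 4.80, Bcl6 3.02, Herpud1 1.79, Slc22a7 1.43, Cmah 1.33 and Cited2 1.04. With a delayed effect, the negative differences were Ccdc25 -1.97, Raly -1.3, Fam117b -1.23, Ybx3 -1.15, Rbbp6 -1.07 and Cadm1 -0.99. With a reversed effect, the positive differences were Efna1 1.89, Cope 0.74 and Gjb1 0.69. With a reversed effect, the negative differences were Phlda1 -3.36, Cish -3.32, Wsb1 -2.05, Foxa2 -1.47, Gdap10 -1.32 and Stim1 -1.26. With a shrinking effect, the positive differences were Bche 1.29, Cyp17a1 1.29, Abcd2 1.26, Acnat2 0.95 and Cyp2c68 0.69. With a growing effect, the positive differences were Elovl3 2.30 and Susd4 1.42. The negative difference with a growing effect was Hao2 -2.31. The positive difference with no call at either time was Mrpl50 0.61. With no call at either time, the negative differences were Aggf1 -0.89, Alcam -0.83, Dvl1 -0.80, Rps6 -0.75 and Ube2r2 -0.74.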

How the results depend on the processing

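The main count was 158 genes, 57 with a positive and 101 with a negative difference, 108 transient, 24 delayed and 9 reversed. Phlda1 was called under each of 30 settings, and Cish, Foxq1, Efna1, Herpud1, Foxa2 and Gdap10 under all but the actin covariate. Bcl6 and Ccdc25 were tested under 29 settings and were lost only with that covariate. With arrays centred on their medians the split was 89 positive and 65 negative. Without a filter on dim genes 37 were called (14 positive, 23 negative, 22 transient, 6 delayed). With the mean of a gene's probe sets 51 were negative and 15 delayed, and over every probe set 554 were called (302 positive, 252 negative, 397 transient, 67 delayed, 16 reversed). Without a variance trend 72 were called (24 and 48, 46 transient, 12 delayed), and with array weights 693 (249 and 444, 389 transient, 156 delayed, 43 reversed). A 2-fold minimum left 70 (23 and 47, 42 transient, 15 delayed), and an adjusted p under 0.10 gave 512 (189 and 323, 331 transient, 84 delayed, 30 reversed). With the replicate number as a block 55 were called (24 and 31, 35 transient, 6 delayed); same-numbered mice correlated at r = -0.194 to 0.00565 and 0 of 12 mice correlated best with their own number, so the numbers do not pair the mice. With the actin ratio as covariate 1 gene was called (0 positive, 1 negative, 0 transient, 0 delayed, 1 reversed). Without probe sets marked as shared, the differences of Ampd2 (0.10) and Igf1 (-0.13) had the opposite sign. Leaving out 1 mouse gave 26 to 534 called genes, 11 to 176 positive, 15 to 358 negative, 12 to 273 transient, 5 to 140 delayed and 6 to 46 reversed. Leaving out withdrawn testosterone mice 1 and 2, chosen after seeing the data, gave 46 delayed and 14 reversed genes. The cause of these shifts was not tested. Dim genes near the floor have only bounded differences.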
